A study of Arabidopsis thaliana with 8 samples.

Results

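The WRKY group II factors are a set of 36 Arabidopsis thaliana genes of the WRKY transcription factor family. They were taken from a fixed list of locus names of subgroups IIa to IIe, which need not hold every gene of group II. All 36 were listed among the 24132 genes found in at least 1 of the 8 deposited tables. Subgroup IIa holds 3 of them, IIb 7, IIc 12, IId 7 and IIe 7. The study measured total RNA by RNA sequencing in Columbia-0 plants, labelled as whole plants and 3 weeks old, with 2 libraries in each of 4 groups. The groups were plants overexpressing the grapevine gene VaWRKY14 (OE) under drought, wild type (WT) under drought, OE under normal watering and WT under normal watering. Drought meant 5 days without water. The treatment protocol calls the OE material a mixture of transgenic plants, so the values are those of a pool and not of 1 line. The promoter that drives the transgene is not given in the sources used here. For 1 library, replicate 1 of the droughted OE plants, the label for genotype reads VaWRKY15 although the title reads VaWRKY14. The title was followed, and calls that were lost without this library are named as such. No row of the tables names the transgene, so its level was not checked. The Arabidopsis gene WRKY14 (AT1G30650), a member of subgroup IIe, shares only its number with the grapevine gene.

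WRKY factors carry a DNA-binding domain named for its WRKY amino acid motif, followed by a zinc finger, and bind the W-box, a short element with the core TTGAC. Group II proteins have a single WRKY domain with a zinc finger of the C2H2 type and are split into subgroups a to e by sequence. WRKY18, WRKY40 and WRKY60 of subgroup IIa form homo- and heterocomplexes and are known as modulators of pathogen defence and of abscisic acid signalling, the hormone pathway that closes stomata under drought. Subgroup IIb includes WRKY6 and WRKY42, known from phosphate transport and leaf senescence. Subgroup IIc includes WRKY28, WRKY45, WRKY50, WRKY51, WRKY57, WRKY71 and WRKY75, with roles in salicylic acid and jasmonate signalling, phosphate supply, senescence and flowering. Subgroup IId proteins bind calmodulin, and WRKY22 and WRKY29 of subgroup IIe act downstream of a MAP kinase cascade of plant immunity.

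The sequences below are the 250 bases before the annotated start of 5 members. They are WRKY61, which was highest in droughted OE plants, WRKY39, which was called in both genotypes, WRKY45 and WRKY51, which were lower in droughted WT plants, and WRKY15, second by mean FPKM. They come from the TAIR10.1 assembly and RefSeq annotation and run 5′ to 3′ on the strand of the gene. The windows are chr1:6508547-6508796 on the plus strand for WRKY61, chr3:1268379-1268628 on the minus strand for WRKY39, chr3:327413-327662 on the minus strand for WRKY45, chr5:25907997-25908246 on the plus strand for WRKY51 and chr2:9924636-9924885 on the plus strand for WRKY15. Capitals mark a W-box (TTGACC or TTGACT) or an ABRE, the abscisic acid response element (ACGTGGC or ACGTGTC), each searched on both strands, so that AGTCAA is a W-box on the other strand.
WRKY61: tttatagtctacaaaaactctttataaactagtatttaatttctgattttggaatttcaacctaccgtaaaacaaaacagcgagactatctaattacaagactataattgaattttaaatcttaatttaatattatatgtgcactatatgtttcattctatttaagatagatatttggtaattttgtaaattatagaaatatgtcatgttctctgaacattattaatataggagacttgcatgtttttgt
WRKY39: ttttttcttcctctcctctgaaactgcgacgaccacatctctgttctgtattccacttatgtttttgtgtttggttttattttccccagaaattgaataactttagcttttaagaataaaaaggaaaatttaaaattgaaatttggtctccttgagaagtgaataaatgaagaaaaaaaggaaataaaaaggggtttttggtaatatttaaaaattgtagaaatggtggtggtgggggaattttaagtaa
WRKY45: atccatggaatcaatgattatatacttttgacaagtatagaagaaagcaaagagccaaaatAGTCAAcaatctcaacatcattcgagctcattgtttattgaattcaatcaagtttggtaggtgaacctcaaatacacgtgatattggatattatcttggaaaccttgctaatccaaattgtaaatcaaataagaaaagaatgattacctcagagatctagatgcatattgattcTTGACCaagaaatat
WRKY51: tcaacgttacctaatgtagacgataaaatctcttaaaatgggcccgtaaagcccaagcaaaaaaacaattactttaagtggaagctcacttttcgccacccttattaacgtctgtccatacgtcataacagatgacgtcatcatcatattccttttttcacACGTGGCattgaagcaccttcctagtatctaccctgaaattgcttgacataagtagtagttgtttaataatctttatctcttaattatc
WRKY15: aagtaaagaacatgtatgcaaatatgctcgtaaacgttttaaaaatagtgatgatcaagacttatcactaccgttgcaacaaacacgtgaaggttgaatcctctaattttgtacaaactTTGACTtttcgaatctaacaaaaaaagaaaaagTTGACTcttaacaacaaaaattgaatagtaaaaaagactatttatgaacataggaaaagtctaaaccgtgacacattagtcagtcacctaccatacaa
The windows of WRKY61 and WRKY39 hold neither motif in these spellings. WRKY45 has W-boxes starting 189 and 15 bases before the gene, WRKY15 has them at 131 and 98 bases, and WRKY51 has an ABRE at 89 bases. Over all 36 members, 10 (27.8%) had at least 1 W-box in this window, against 28.4% of the 27443 protein-coding genes. Windows with at least 2 W-boxes belonged to 4 members (11.1%), WRKY15, WRKY17, WRKY29 and WRKY45, against 6.18% of all genes. None of the 3 subgroup IIa windows held a W-box, while 3 of the 7 subgroup IId windows did. An ABRE was found for 4 members (11.1%), WRKY12, WRKY35, WRKY51 and WRKY75, against 6.39% of all genes. These are matches of letters and not measured sites. Nothing in these data measures binding.

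The libraries held 9591274 to 11378571 expected counts and listed 21335 to 22290 genes. At this depth 3 counts, taken as the floor, correspond to 0.242 to 0.313 CPM (the expected count relative to the TMM-scaled library size). The 2 libraries of each group differed beyond what counting error gives (chi-square divided by its degrees of freedom, 5.65 to 9.63). Nothing says that the 2 libraries of a group came from separate plants or cultures, so p-values measure the spread between these libraries, which may be technical. Of 11 root markers, 6 were listed at all and their summed level was 0 to 1.07 CPM per library, so the libraries labelled as whole plants held root markers at or near 0. The 5 leaf photosynthesis markers summed to 25700 and 29000 CPM in droughted OE, 28100 and 20200 CPM in droughted WT, 61200 and 74500 CPM in watered OE and 48700 and 60700 CPM in watered WT libraries. In bulk samples, fewer cells of a type and less RNA per cell cannot be told apart.

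Among the members, 34 were listed in all 8 tables. Their summed level was 416.1 to 499 CPM per library. Subgroup IId gave 48.2% to 58.6% of it, IIa 13.1% to 21.9%, IIc 11.8% to 17.1%, IIe 8.03% to 11.3% and IIb 4.54% to 7.69%. On the scale of FPKM, which takes gene length into account, WRKY11, a negative regulator of basal resistance, was highest with a mean of 52.1 FPKM over the 8 libraries and a range of 41.4 to 62.2 FPKM. WRKY15, known from salt and osmotic stress, followed with 40.2 FPKM and a range of 34.4 to 45.8 FPKM. WRKY18 had 34.0 FPKM (23.1 to 49.5) and WRKY21 27.3 FPKM (21.0 to 32.7). The ranges of these 4 neighbours overlap in each step of the order. WRKY40 averaged 20.5 FPKM, WRKY39 16.7 FPKM, WRKY69 15.4 FPKM, WRKY7 11 FPKM, WRKY45 10.4 FPKM and WRKY57 9.73 FPKM. At the other end WRKY61 had 0.335 FPKM, WRKY71 0.324 FPKM, WRKY31 0.126 FPKM, WRKY43 0.0975 FPKM and WRKY72 0.0438 FPKM. WRKY43, which has been tied to seed germination, was at or under 3 counts in every library, with 5 counts in all.

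**Figure D1:**
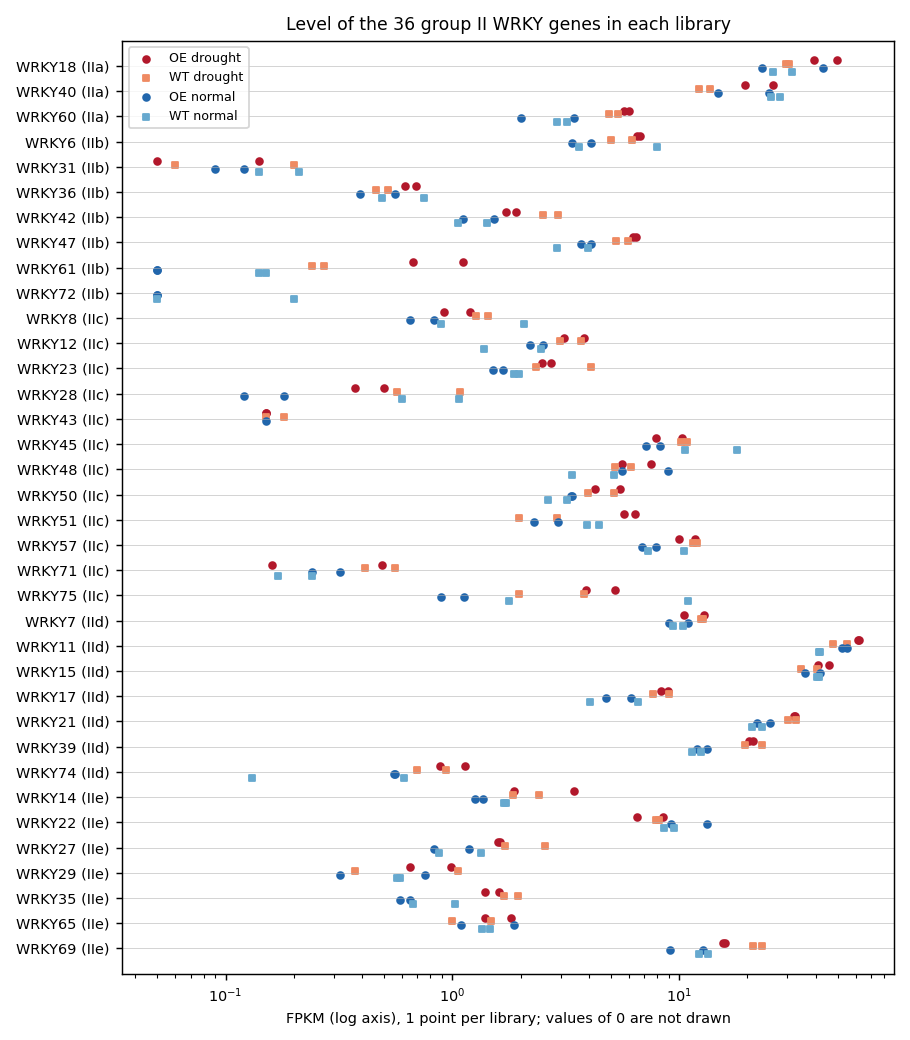
FPKM of each of the 36 genes (rows, by subgroup) in each library on a log axis, 1 point per library, with OE drought, WT drought, OE normal and WT normal in separate colours; values of 0 are not drawn. WRKY11, WRKY15, WRKY18 and WRKY21 lie above 20 FPKM in every library, and WRKY31, WRKY43 and WRKY72 lie at or below 0.21 FPKM.

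A filter on low counts left 32 members and 19259 genes for testing. WRKY31, WRKY43, WRKY71 and WRKY72 did not pass it in any library and were not tested. WRKY61 passed only through the droughted OE libraries, the group where it was highest, so that its presence among the tested members already depends on that difference. Likewise WRKY28 passed only through WT libraries, 1 watered and 1 droughted, and WRKY74 only through droughted libraries. One edgeR quasi-likelihood model of all 8 libraries was used for every comparison, with two-sided p-values adjusted by the Benjamini-Hochberg method over all 19259 genes. A gene was called at an adjusted p under 0.05, and each log2 fold change is given with its standard error (SE). Over all comparisons, 8 of the 36 members were called at least once. The 8 include WRKY61. All of these calls came from drought against normal watering, and none from OE against WT. Of all genes tested, 6.77% were called up and 9.92% down with drought in OE, and 5.63% and 7.37% in WT. Between OE and WT, 0.296% were called up and 0.0935% down with normal watering, and 0.161% and 0.135% under drought. No call among 32 members is close to those low shares.

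In OE plants, WRKY61 and WRKY39 rose and WRKY22 fell with drought, which makes 2 calls up and 1 down among the 32 tested members. WRKY61 is counted although it passed the filter only through the droughted OE libraries. Without the first droughted OE library, whose genotype label names VaWRKY15, WRKY61 was the 1 member still called. The number called was 2 without the second watered OE library and 5 without either watered WT library. Over all genes, 6.77% were called up and 9.92% down in this comparison. The members' median log2 fold change was 0.20 and that of all genes 0.02, and 24 of the 32 members had a positive value (30 on the FPKM scale). By the count test 10097 of all 19259 genes had a positive value. Both droughted OE libraries lay above both watered ones for 15 members (46.9%) and below them for 2 (6.25%), against 31.9% and 29.3% of all genes tested. The 15 and the 24 include both WRKY61 and WRKY74. WRKY74 passed the filter only through droughted libraries, so its direction does not support a rise. With FPKM in place of scaled counts the median of all genes itself moved to 0.34, and that of the members to 0.48. On that scale 6913 genes were called up and 671 down, against 1303 up and 1911 down by the count test.

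WRKY61 (AT1G18860, chromosome 1, 6508797 to 6511397, plus strand, 4 coding exons) had 1.89 and 1.13 CPM in droughted OE libraries, against 0.0987 and 0.104 CPM in watered OE libraries. These are 23 and 14 counts against 1 and 1. The droughted WT libraries had 0.491 and 0.405 CPM and the watered WT libraries 0.293 and 0.289 CPM. Only the droughted OE libraries exceeded 1 CPM. Summed per scaled library, the ratio in OE was 14.9, with an exact 95% interval of 3.83 to 127 that covers counting error only, and the fitted log2 fold change was 3.75 ± 0.72 (adjusted p = 0.00271). Because WRKY61 was tested only through the group where it was high, this p and its values under other settings do not support the difference. Without the library whose genotype label names VaWRKY15 the adjusted p was 0.0417. In WT the log2 fold change with drought was 0.59 ± 0.73 (adjusted p = 0.655), and the difference between the responses was 3.16 ± 1.14 (adjusted p = 0.268). On the opposite strand, the long non-coding RNA AT1G05447 overlaps 216 of the 2601 bases of WRKY61. Whether counting used the strand is not given in the sources used here, so their reads may not be separate.

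WRKY39 (AT3G04670, chromosome 3, 1266056 to 1268378, minus strand, 3 coding exons), a calmodulin-binding factor known from heat stress, was the only member called in both genotypes. It had 39.8 and 40.3 CPM in droughted OE libraries, against 32 and 30.6 CPM in watered OE libraries. In WT it had 39.1 and 43.5 CPM under drought, against 28.4 and 26.5 CPM with water. Droughted libraries of either genotype thus lay above all 4 watered libraries. The log2 fold change was 0.35 ± 0.11 in OE (adjusted p = 0.0435) and 0.59 ± 0.11 in WT (adjusted p = 0.00313). The WT call held in 14 of 14 alternatives and the OE call in 8 of 14. Among the settings that lost the OE call were the fits without the first or second droughted OE library (adjusted p = 0.149 and 0.175), without the first or second watered OE library (0.118 and 0.187) and DESeq2 (0.187). The difference between the genotypes was -0.24 ± 0.16 (adjusted p = 0.587).

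WRKY22 (AT4G01250, chromosome 4, 522530 to 524249, minus strand), which acts after flagellin perception and in dark-induced senescence, had 7.73 and 10.1 CPM in droughted OE libraries, against 13.5 and 20.6 CPM in watered OE libraries. It fell by 0.94 ± 0.20 on the log2 scale (adjusted p = 0.00595). The call was lost without the second watered OE library (-0.60, adjusted p = 0.092) and without the first droughted one, whose genotype label names VaWRKY15 (-0.75, adjusted p = 0.0732). In WT it had 10.2 and 9.23 CPM under drought and 12.1 and 13.8 CPM with water, a log2 fold change of -0.41 ± 0.21 (adjusted p = 0.217). Libraries of the drought and water groups did not overlap in either genotype. The difference between the responses was -0.52 ± 0.29 (adjusted p = 0.489).

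In WT plants, 6 members were called under drought. WRKY39, WRKY69 and WRKY42 rose, and WRKY40, WRKY51 and WRKY45 fell. Over all genes 5.63% were called up and 7.37% down, so 3 of 32 in each direction is close to the background. The members' median log2 fold change was 0.13, against 0.02 for all genes, and 20 of 32 were positive (22 on the FPKM scale). The 20 include WRKY74, which passed the filter only through droughted libraries. By the count test 10132 of all 19259 genes were positive. Droughted WT libraries lay above the watered ones for 12 members (37.5%) and below for 7 (21.9%), against 28.8% and 25.7% of all genes. On the FPKM scale the median of all genes moved to 0.24 and that of the members to 0.31, with 3844 genes up and 703 down in place of 1085 up and 1420 down. The number of members called was 2 without the first droughted WT library, 1 without the second and 2 without the first watered one.

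WRKY40 (AT1G80840, chromosome 1, 30383561 to 30385499, plus strand), a repressor of abscisic acid responses and of defence, had 15.2 and 15.9 CPM in droughted WT libraries, against 39.2 and 36.7 CPM in watered WT libraries. In OE it had 23.2 and 30.7 CPM under drought and 21.7 and 38.8 CPM with water. The droughted WT libraries were the lowest of all 8, and the OE groups overlapped. WRKY40 fell in WT by 1.28 ± 0.265 on the log2 scale (adjusted p = 0.0187). In OE its log2 fold change was -0.16 ± 0.255 (adjusted p = 0.72). The WT change stayed between -1.33 and -1.01 over 14 alternatives, of which 10 kept the call. It was lost without the first or second droughted WT library (adjusted p = 0.111 and 0.137) and without the first or second watered one (0.101 and 0.0934). The difference between the responses, 1.12 ± 0.37, had an adjusted p of 0.282, and of 0.00761 at a size of 1.60 without the second watered OE library. The gene AT1G80850 on the opposite strand overlaps 51 of the 1939 bases of WRKY40. It fell as well in WT (-0.71, adjusted p = 0.0175) and in OE (-0.55, adjusted p = 0.0483). Strand use in counting is not given, so reads of WRKY40 and AT1G80850 may not be separate.

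The other members of subgroup IIa were not called under drought. WRKY18 (AT4G31800, chromosome 4, 15382777 to 15385100, plus strand) had 46.7 and 58.5 CPM in droughted OE, 36.6 and 34.9 CPM in droughted WT, 34.2 and 67.6 CPM in watered OE and 36.3 and 45.5 CPM in watered WT libraries. Its highest and its lowest library were both watered OE plants. The log2 fold change with drought was 0.05 ± 0.33 in OE (adjusted p = 0.942) and -0.19 ± 0.345 in WT (adjusted p = 0.781). Without the second watered OE library the OE value was 0.62 (adjusted p = 0.0392), and without the first it was -0.365. WRKY60 (AT2G25000, chromosome 2, 10629662 to 10631413, plus strand) had 6.16 and 6.13 CPM in droughted OE, 5.99 and 5.18 CPM in droughted WT, 4.54 and 3.02 CPM in watered OE and 3.51 and 4.04 CPM in watered WT libraries. Each droughted library was above each watered one. Its log2 fold change was 0.695 ± 0.24 in OE (adjusted p = 0.0613) and 0.56 ± 0.245 in WT (adjusted p = 0.155). WRKY60 was called up in both genotypes by limma on the FPKM scale (adjusted p = 0.00419 and 0.0389), and in OE without the first watered OE library (1.02, adjusted p = 0.0442).

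Of subgroup IIb, WRKY42 (AT4G04450, chromosome 4, 2218042 to 2221260, plus strand), a repressor of the phosphate exporter gene PHO1, had 5.01 and 5.34 CPM in droughted WT libraries, against 3.12 and 2.40 CPM in watered WT libraries. The droughted OE libraries had 3.21 and 3.55 CPM and the watered OE libraries 2.67 and 3.75 CPM. The droughted WT pair stood above the other 6 libraries. WRKY42 rose in WT by 0.905 ± 0.27 on the log2 scale (adjusted p = 0.0365), and in OE the value was 0.08 ± 0.275 (adjusted p = 0.879). The WT call held in 6 of 14 alternatives. It was lost without any 1 of the WT or droughted OE libraries (adjusted p from 0.0503 to 0.206), with DESeq2 (0.188) and with only the WT libraries in the fit (0.0506). WRKY6, a regulator of senescence and phosphate transport, had 13.6 and 14 CPM in droughted OE and 8.79 and 11.4 CPM in watered OE libraries, and was not called (0.46 ± 0.33, adjusted p = 0.392). In WT its value was -0.29 ± 0.32 (adjusted p = 0.632), and without the second watered WT library -0.74 (adjusted p = 0.0208). WRKY47, tied to boron supply, had log2 fold changes of 0.35 ± 0.18 in OE and 0.46 ± 0.185 in WT (adjusted p = 0.194 and 0.118), and limma on the FPKM scale called it in both (0.0166 and 0.0252).

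In subgroup IIc, WRKY51 (AT5G64810, chromosome 5, 25908247 to 25909881, plus strand), a factor that represses jasmonate signalling with WRKY50, had 2.55 and 1.62 CPM in droughted WT libraries, against 3.90 and 4.52 CPM in watered WT libraries. In OE it had 4.77 and 5.32 CPM under drought, against 2.37 and 3.23 CPM with water. The groups did not overlap in either genotype, and the order was opposite. WRKY51 fell in WT by 1.03 ± 0.30 on the log2 scale (adjusted p = 0.0333). In OE the value was 0.85 ± 0.28 with an adjusted p of 0.0504. It was called up in OE on the FPKM scale (adjusted p = 0.00268), without the filter on low counts (0.0443), with only the OE libraries in the fit (0.0341) and without any 1 of the WT libraries (0.0427 to 0.0457), and was not called without the first or second OE library of either group. The difference between the responses, 1.88 ± 0.41, had an adjusted p of 0.0712. That difference was called without the filter on low counts (adjusted p = 0.0248) and with limma on the FPKM scale (0.0387), and leaving out single libraries gave adjusted p-values of 0.0533 to 0.272. The WT call held in 9 of 14 alternatives and was lost without the first watered (adjusted p = 0.0515), the second watered (0.148) or the second droughted WT library (0.255), with DESeq2 (0.13) and with only the WT libraries in the fit (0.0569).

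WRKY45 (AT3G01970, chromosome 3, 325952 to 327412, minus strand), an activator of phosphate uptake, had 13.0 and 12.9 CPM in droughted WT libraries, against 25.9 and 15.8 CPM in watered WT libraries. It fell by 0.69 ± 0.21 on the log2 scale (adjusted p = 0.0457), and 5 of 14 alternatives kept the call. Without the first watered WT library the log2 value was -0.29 (adjusted p = 0.414). The call was also lost without the first or second droughted WT library (adjusted p = 0.172 and 0.233) and without either watered OE library (0.068 and 0.0673), with DESeq2 (0.0632), on the FPKM scale (0.205) and with only the WT libraries (0.0744). In OE it had 9.62 and 12.4 CPM under drought and 12.3 and 11.5 CPM with water (-0.11 ± 0.22, adjusted p = 0.781). WRKY57, which has been linked to drought tolerance, was not called by edgeR, with 14.1 and 11.8 CPM in droughted OE, 15.2 and 14.1 CPM in droughted WT, 12.2 and 10.3 CPM in watered OE and 14.6 and 11 CPM in watered WT libraries. Drought and water groups of WRKY57 overlapped in both genotypes, with log2 fold changes of 0.20 ± 0.18 in OE and 0.19 ± 0.17 in WT. Limma on the FPKM scale called it in OE (adjusted p = 0.0322), and in WT it called WRKY12, a factor of secondary wall formation (0.0491).

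In subgroup IId, no member besides WRKY39 was called with drought by edgeR. WRKY11 (AT4G31550, chromosome 4, 15289788 to 15291934, minus strand) had 67.1 and 68.4 CPM in droughted OE, 56.1 and 59.0 CPM in droughted WT, 71.2 and 79.4 CPM in watered OE and 53.6 and 55.9 CPM in watered WT libraries. The OE libraries were above the WT libraries at either water supply. With drought its log2 fold change was -0.15 ± 0.11 in OE (adjusted p = 0.356) and 0.07 ± 0.11 in WT (adjusted p = 0.724). WRKY15 (AT2G23320, chromosome 2, 9924886 to 9926372, plus strand) had 47.2 and 52.4 CPM in droughted OE, 41.6 and 45.6 CPM in droughted WT, 50.7 and 63.3 CPM in watered OE and 55.3 and 57.8 CPM in watered WT libraries. Its log2 fold change with drought was -0.195 ± 0.12 in OE (adjusted p = 0.307) and -0.375 ± 0.12 in WT (adjusted p = 0.0597). The WT libraries of WRKY15 did not overlap, and it was called lower in droughted WT without the first or second watered OE library (adjusted p = 0.0409 and 0.0407) and without the filter on low counts (0.0457). WRKY7, WRKY17, WRKY21 and WRKY74 were not called by edgeR in either genotype, with log2 fold changes from -0.10 to 0.87. The highest value is that of WRKY74 in WT. WRKY74 was tested only through droughted libraries, so its values do not support a rise. Limma on the FPKM scale, where all genes shift upward, called WRKY17 (adjusted p = 0.0309 in OE and 0.0453 in WT) and WRKY21 (0.0124 and 0.0105) higher under drought. WRKY17 was also called in WT without the second watered WT library (0.81, adjusted p = 0.0424).

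In subgroup IIe, WRKY69 (AT3G58710, chromosome 3, 21714911 to 21716916, plus strand) had 24.9 and 25.3 CPM in droughted WT libraries, against 17.7 and 16.6 CPM in watered WT libraries. OE libraries had 17.8 and 17.3 CPM under drought and 17.6 and 13.4 CPM with water. As with WRKY42, the droughted WT pair was above the other 6 libraries. WRKY69 rose in WT by 0.55 ± 0.14 on the log2 scale (adjusted p = 0.0181), and its value in OE was 0.18 ± 0.15 (adjusted p = 0.437). Limma on the FPKM scale called WRKY69 higher under drought in OE as well (0.53, adjusted p = 0.0178). The WT call held in 10 of 14 alternatives and was lost with DESeq2 (adjusted p = 0.083) and without the second watered (0.098), the first droughted (0.0747) or the second droughted WT library (0.101). AT3G58720 on the opposite strand overlaps 373 of the 2006 bases of WRKY69 and rose in WT as well (0.62, adjusted p = 0.00521). The long non-coding RNA AT3G09145, also on the opposite strand, overlaps 345 bases. Strand use in counting is not given, so the reads of these genes and WRKY69 may not be separate. WRKY14, WRKY27, WRKY29, WRKY35 and WRKY65 were not called by edgeR in either genotype. Among them WRKY35 had the largest value, 1.02 ± 0.375 in OE (adjusted p = 0.0741), from 2.38 and 2.18 CPM under drought against 1.09 and 1.15 CPM with water. Limma on the FPKM scale called WRKY35 higher under drought in both genotypes (adjusted p = 0.0157 in OE and 0.0293 in WT) and WRKY14 in OE (0.0328). WRKY14 was also called in OE without the second droughted OE library (1.035, adjusted p = 0.0459).

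**Figure D2:**
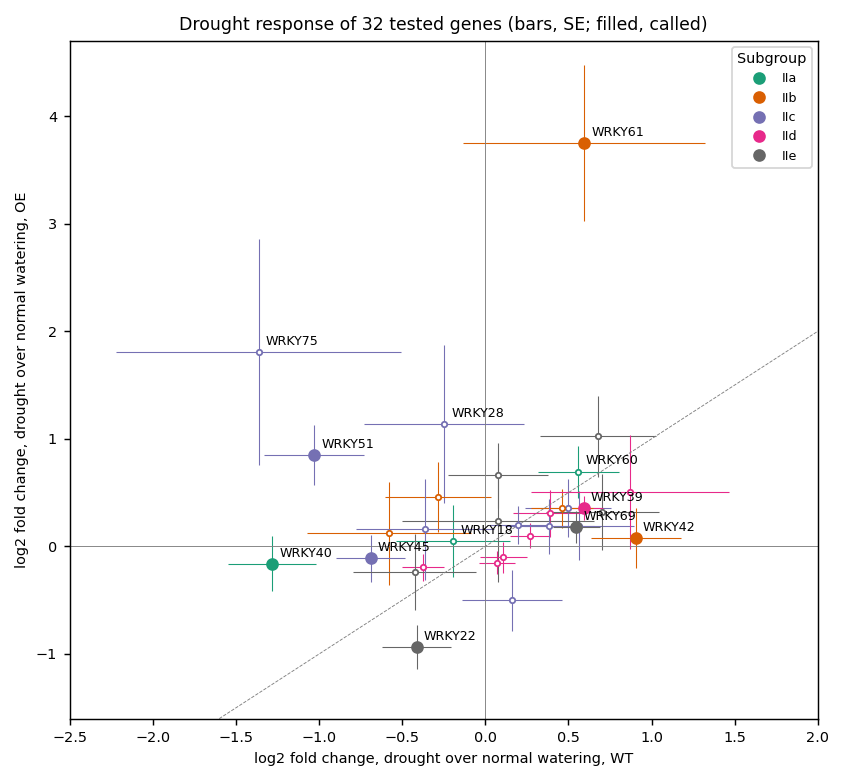
Log2 fold change of drought over normal watering in WT (horizontal) and OE plants (vertical) for the 32 tested members, with SE bars; filled points were called in at least 1 genotype and the dashed line marks equal values. WRKY39 lies in the upper right with 0.59 in WT and 0.35 in OE, WRKY51 in the upper left with -1.03 and 0.85, and WRKY61 at the top with 3.75 in OE.

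**Figure D3:**
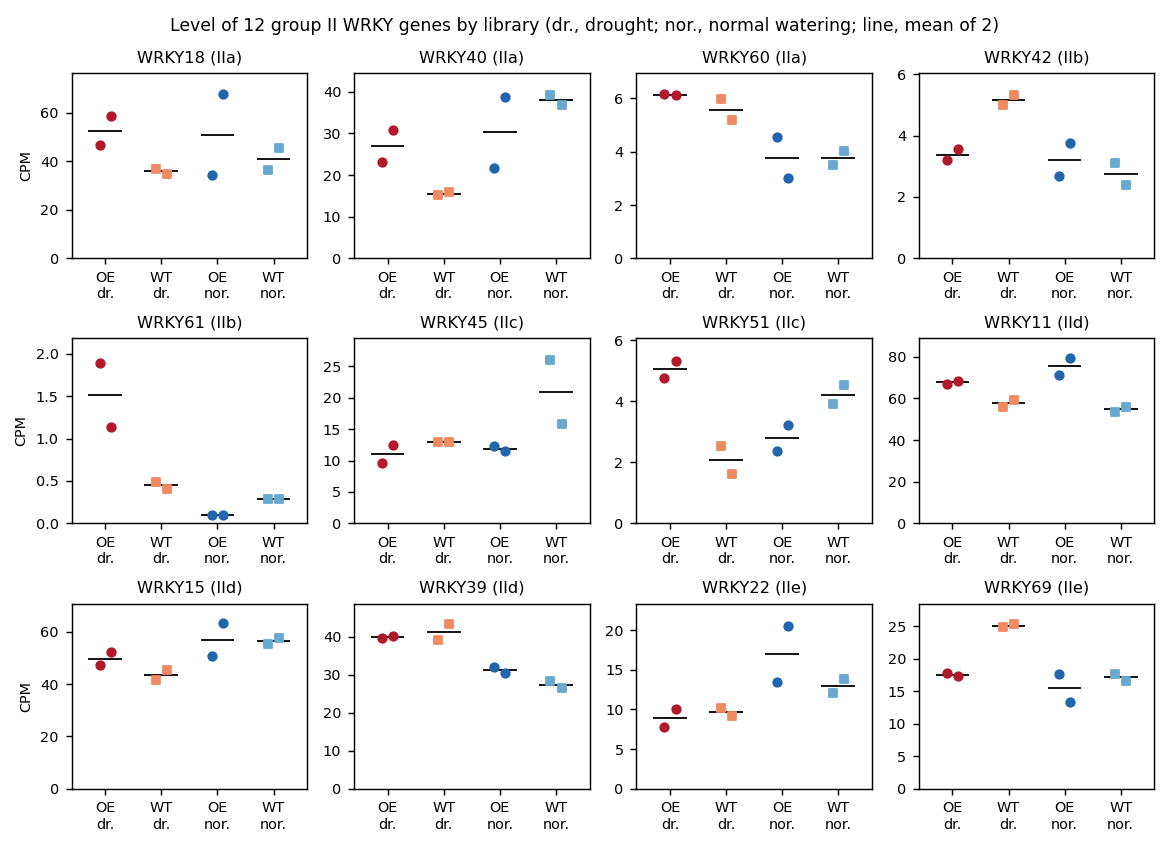
CPM per library of the 12 members given library by library in the text; columns are OE drought, WT drought, OE normal and WT normal, and a line marks the mean of the 2 libraries. In WRKY42 and WRKY69 the droughted WT libraries are the highest, and in WRKY40 they are the lowest.

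The drought comparisons of OE and WT use separate libraries, and the difference between them was tested in the same model. None of the 32 tested members was called for that difference by edgeR, while 0.0987% of all genes were called with a higher and 0.0623% with a lower response in OE. At an unadjusted p under 0.05 there were 3 members with a higher response in OE, WRKY40, WRKY51 and WRKY61, and 1 with a lower response, WRKY42 (-0.83 ± 0.39, adjusted p = 0.395). Over all 19259 genes tested, 1104 had a higher and 1303 a lower response at that threshold. WRKY61 was tested only through the droughted OE libraries, so its p does not support a higher response. DESeq2 called none, and limma on the FPKM scale and the fit without a filter called 1 each, WRKY51 in both. WRKY75 had the largest difference of the 32, 3.17 ± 1.35 (adjusted p = 0.433), and WRKY6 had 0.75 ± 0.46 (adjusted p = 0.565). Without the second watered WT library WRKY75 (3.95, adjusted p = 0.000356) and WRKY6 (1.20, adjusted p = 0.0181) were called, and without the second watered OE library WRKY40 was (1.60, adjusted p = 0.00761). The median difference was 0.07 for the members and -0.01 for all genes. In subgroup IId 6 of 7 members had a negative difference, with a median of -0.21 (5 of 7 and -0.10 on the FPKM scale), while all 3 members of subgroup IIa had a positive one on either scale. Of subgroup IIa, WRKY18 had 0.24 ± 0.48 and WRKY60 0.14 ± 0.35. WRKY18 turned to -0.168 without the first watered OE library and WRKY60 to -0.123 without the second.

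Between OE and WT under drought, no member was called by edgeR, against 0.161% of all genes called up and 0.135% called down. At an unadjusted p under 0.05, 4 members were higher and 2 lower in OE, against 901 and 870 of all 19259 genes tested. DESeq2 called no member. The members' median log2 fold change was 0.11 (all genes -0.01), and 20 of 32 were positive, against 9416 of all 19259 genes. OE libraries lay above WT libraries for 10 members (31.2%) and below for 6 (18.8%), against 19.6% and 20.9% of all genes. All 3 members of subgroup IIa had both OE libraries above both WT libraries. WRKY51 had the smallest p, with 4.77 and 5.32 CPM in droughted OE against 2.55 and 1.62 CPM in droughted WT libraries, a log2 fold change of 1.29 ± 0.29 and an adjusted p of 0.0996. It was called by limma on the FPKM scale (1.17, adjusted p = 0.0441) and by edgeR without the filter on low counts (1.29, adjusted p = 0.0361), and without the first droughted OE library its value was 1.37 (adjusted p = 0.258). WRKY40 had 0.79 ± 0.27 (adjusted p = 0.417), WRKY18 0.56 ± 0.34 (adjusted p = 0.701) and WRKY60 0.14 ± 0.23 (adjusted p = 0.902). When the fit held only the droughted libraries, WRKY18, WRKY40 and WRKY51 were called higher in OE (adjusted p = 0.0388, 0.0118 and 0.0317). WRKY40 was also called without the first or second watered OE library (adjusted p = 0.028 and 0.0296), and WRKY51 without the first or second watered WT library (0.0475 and 0.0497), although none of these belongs to the comparison. WRKY69 and WRKY42 were the lower ones at an unadjusted p under 0.05, with -0.51 ± 0.14 and -0.62 ± 0.255 (adjusted p = 0.20 and 0.469). WRKY61 had a ratio of 3.39 from 37 against 10 counts, with an exact 95% interval for counting error of 1.65 to 7.65 and an adjusted p of 0.26. WRKY61 was tested only through the droughted OE libraries, so this interval and p do not support the difference. It is counted all the same among the 4 members higher at an unadjusted p under 0.05 and the 10 above WT.

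With normal watering, again no member was called between OE and WT by edgeR, against 0.296% of all genes called up and 0.0935% called down. Unadjusted, 2 members were higher and 3 lower in OE at p under 0.05, against 1154 and 815 of all 19259 genes tested. The 3 include WRKY28, which was tested only through WT libraries, so its p does not support the difference. DESeq2 called 1 member, WRKY75. The median log2 fold change of the members was -0.003 and that of all genes 0. Of the members 16 were positive and 16 negative (13 positive on the FPKM scale), and of all 19259 genes 9638 were positive. OE libraries were above WT libraries for 5 members (15.6%) and below for 8 (25%), against 21.7% and 18.9% of all genes. All 7 subgroup IId members had positive values, with a median of 0.18 (5 of 7 and 0.08 on the FPKM scale, where WRKY15 was at -0.08 and WRKY7 at 0). In turn, 5 of the 8 members without overlap that were lower in OE belonged to subgroup IIc, as did 2 of the 5 that were higher. Subgroup IIc holds 10 of the 32 tested members. Its 5 lower ones include WRKY28, and the 8 include WRKY61, which had 1 and 1 counts in OE against 3 and 3 in WT. WRKY11 was closest to a call, with 71.2 and 79.4 CPM in watered OE against 53.6 and 55.9 CPM in watered WT libraries, a log2 fold change of 0.46 ± 0.11 and an adjusted p of 0.0884. WRKY48, a repressor of basal resistance, had 11.9 and 20.3 CPM in OE and 6.93 and 11 CPM in WT (0.845 ± 0.29, adjusted p = 0.365). With drought the edgeR log2 fold change of WRKY48 was -0.50 ± 0.28 in OE (adjusted p = 0.267) and 0.16 ± 0.30 in WT (adjusted p = 0.791). Without the first watered OE library, which leaves only the higher one, the OE drought value was -0.84.

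WRKY75, an activator of phosphate starvation responses and of leaf senescence, had 0.987 and 0.833 CPM in watered OE and 9.17 and 1.54 CPM in watered WT libraries. The first watered WT library was the highest of all 8, and the second lay within the range of the droughted WT libraries, 2.85 and 1.38 CPM. Its log2 fold change in OE was -2.54 ± 1.00 with an adjusted p of 0.488 by edgeR and -2.55 with 0.0299 by DESeq2. Without the second watered WT library, which leaves only the high one, the value was -3.31 (adjusted p = 7.27e-05). With drought WRKY75 had 3.70 and 2.74 CPM in OE, above the watered OE libraries, and a log2 fold change of 1.81 ± 1.05 in OE (adjusted p = 0.318) and -1.36 ± 0.855 in WT (adjusted p = 0.387). The OE response was called with only the OE libraries in the fit (1.81, adjusted p = 0.00414) and without the first or second watered WT library (adjusted p = 0.00574 and 0.00437). The WT response was called without the second watered WT library (-2.15, adjusted p = 0.000808). WRKY45 had 12.3 and 11.5 CPM in watered OE and 25.9 and 15.8 CPM in watered WT libraries (-0.81 ± 0.21, adjusted p = 0.157). WRKY6 of subgroup IIb had 8.79 and 11.4 CPM in OE and 19.9 and 9.23 CPM in WT (-0.53 ± 0.33, adjusted p = 0.636). Both were called without the second watered WT library (-1.12 with an adjusted p of 0.00136 for WRKY45, -0.98 with 0.00759 for WRKY6). The senescence marker SAG13 was also high in that first watered WT library, with 33.4 and 26.8 CPM in watered OE and 232 and 39.9 CPM in watered WT libraries. The 6 senescent leaf markers together summed to 568 and 519 CPM in watered OE and 782 and 497 CPM in watered WT libraries, and SAG12, their defining marker, was at 0 in 3 of these 4 libraries and at 0.0975 CPM in the first watered WT library. Their part in the values of WRKY75, WRKY45 and WRKY6 was not tested. WRKY28, an activator of the salicylic acid gene ICS1, had 0.197 and 0.313 CPM in watered OE and 1.66 and 0.962 CPM in watered WT libraries. That is 5 counts against 27 and a ratio of 0.194 with an exact 95% interval of 0.0583 to 0.511 for counting error, and the fitted value was -2.32 ± 0.65. Because WRKY28 was tested only through WT libraries, the genotype where it was high, these values are a description and do not support the difference.

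**Figure D4:**
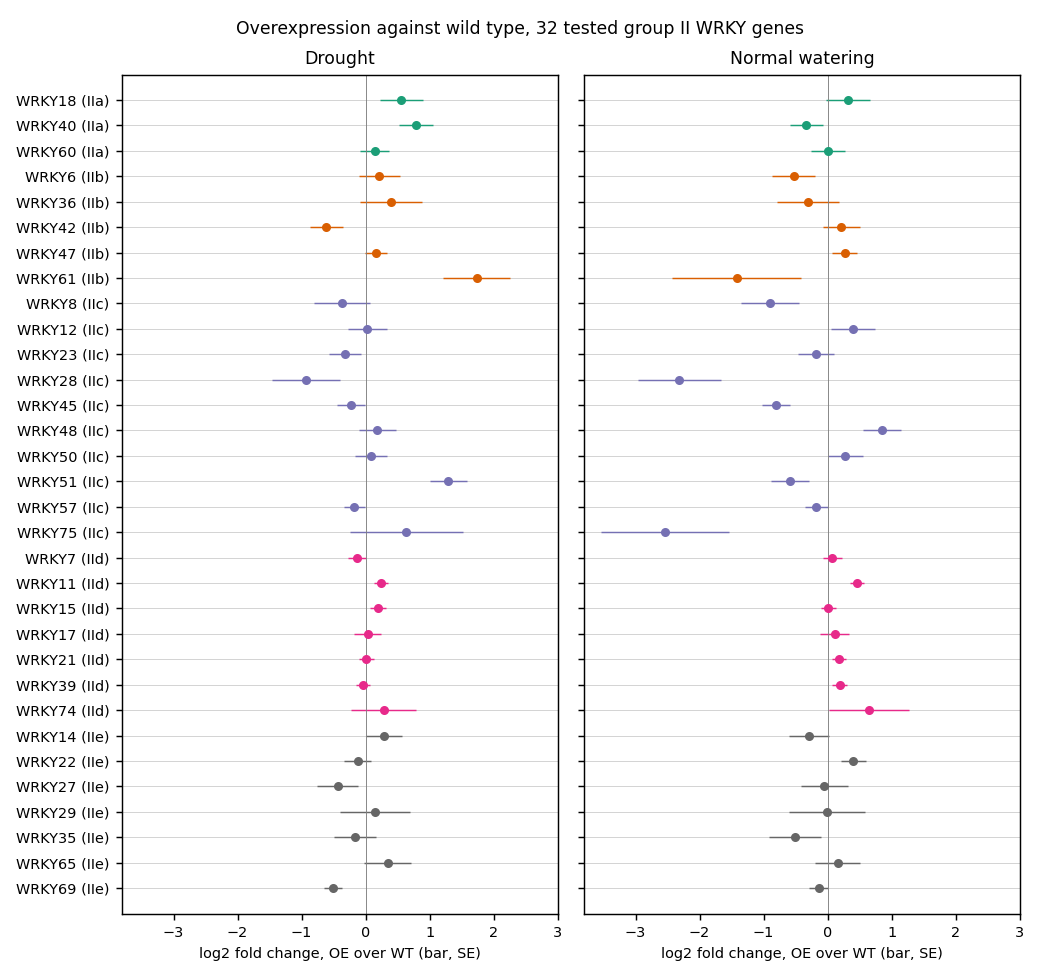
Log2 fold change of OE over WT with SE for the 32 tested members, under drought (left) and with normal watering (right), coloured by subgroup. No member was called by edgeR over all 8 libraries in either panel; WRKY51 under drought lies at 1.29, and WRKY75 and WRKY28 with normal watering lie at -2.54 and -2.32.

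Touch and rapid stress genes are given beside subgroup IIa, whose members are rapidly induced too. Summed over WRKY18, WRKY40 and WRKY60, subgroup IIa was at 76 and 95.3 CPM in droughted OE, 57.8 and 56 CPM in droughted WT, 60.4 and 109 CPM in watered OE and 79 and 86.3 CPM in watered WT libraries. The second watered OE library had the highest sum of all 8 and the droughted WT libraries the lowest. The 7 touch and rapid stress genes, which respond to handling within minutes, summed to 1150 and 1030 CPM in droughted OE, 924 and 709 CPM in droughted WT, 1550 and 2420 CPM in watered OE and 1710 and 2060 CPM in watered WT libraries. The second watered OE library was highest in the touch genes as well, and the droughted WT libraries lowest. In OE the sums did not move together, since the touch genes averaged 1090 CPM in droughted and 1980 CPM in watered libraries while subgroup IIa averaged 85.7 and 84.9 CPM. All 7 touch genes had lower droughted than watered libraries in both genotypes, against 29.3% of all genes tested in OE and 25.7% in WT. Of the 7, 2 were called down in OE and 5 in WT, with medians of -0.815 and -1.12. Among all genes tested, 9.92% were called down in OE and 7.37% in WT. The calmodulin-like touch gene TCH3 fell by 0.81 in OE and by 1.46 in WT (adjusted p = 0.00732 and 0.000218). Without the first droughted OE library neither OE call was kept (TCH3 -0.83, adjusted p = 0.0571, and TCH4 -1.20, adjusted p = 0.0742). The part of handling in the values of WRKY18 and WRKY40 was not tested.

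Flower markers also differed between the groups. The 8 markers were all above 0 in all libraries except A9, which was at 0 in the first watered OE library, and summed to 81.5 and 60 CPM in droughted OE, 35.9 and 40.8 CPM in droughted WT, 6.02 and 22.6 CPM in watered OE and 27.1 and 21 CPM in watered WT libraries. In OE 6 of the 8 rose with drought (4 without the first droughted OE library, where AG and A9 had adjusted p-values of 0.0514 and 0.0743), and in WT none was called, where all 8 had positive values and a median of 0.69. Among all genes tested, 6.77% were called up with drought in OE and 5.63% in WT. Both droughted OE libraries, the ones in which WRKY61 exceeded 1 CPM, had the highest sums of the flower markers. SAG12 had 185 and 58.6 CPM in droughted OE, 6.19 and 4.45 CPM in droughted WT, 0 and 0 CPM in watered OE and 0.0975 and 0 CPM in watered WT libraries. The 6 senescent leaf markers did not share this direction. Under drought 3 were higher and 3 lower in OE than in WT, with a median log2 fold change of -0.003. Among the lower ones, SAG13 had 44.1 and 48.5 CPM in droughted OE and 81.7 and 52.4 CPM in droughted WT libraries. The part of developmental stage or of senescent tissue in the values of WRKY61 and WRKY51 was not tested.

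**Figure D5:**
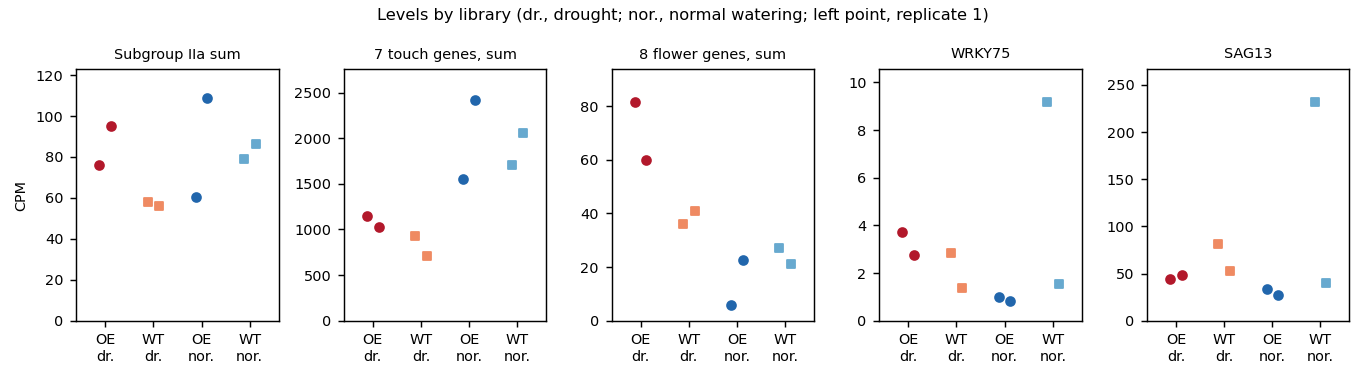
CPM per library of the subgroup IIa sum, the sums of 7 touch genes and 8 flower genes, WRKY75 and SAG13, with OE drought, WT drought, OE normal and WT normal from left to right and replicate 1 as the left point of each pair. The second watered OE library is highest in the first 2 panels (109 and 2420 CPM), the droughted OE libraries are highest in the flower panel, and the first watered WT library is highest for WRKY75 and SAG13.

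Outside the 36 members, 24 of 35 other WRKY genes were tested. These other genes were not sorted by group and can include further genes of group II. Under drought 3 of the 24 rose in OE and none fell, while in WT 1 rose and 5 fell. Among all genes tested, 6.77% were called up and 9.92% down in OE, and 5.63% and 7.37% in WT. WRKY44, a group I factor of trichome and seed coat development, rose in both genotypes, by 1.52 ± 0.33 in OE and 1.795 ± 0.31 in WT (adjusted p = 0.00595 and 0.00156). WRKY53, a group III regulator of leaf senescence, had 78.7 and 75.3 CPM in droughted OE, 46.8 and 53.6 CPM in droughted WT, 36.2 and 38.2 CPM in watered OE and 47.9 and 42 CPM in watered WT libraries. It rose with drought in OE by 1.048 ± 0.12 (adjusted p = 6.38e-05), and WRKY32 rose in OE by 0.41 ± 0.13 (adjusted p = 0.0412). Without the first droughted OE library WRKY53 was still called in OE (1.02, adjusted p = 0.0015) and WRKY32 was not (0.144). In WT WRKY33, a group I factor of defence against necrotrophic fungi, fell by 0.785 ± 0.14 (adjusted p = 0.00187), and WRKY70, a group III factor at the node of salicylic acid and jasmonate signalling, fell by 0.71 ± 0.15 (adjusted p = 0.00601). The median log2 fold change of these 24 genes was 0.07 in OE and 0.02 in WT, against 0.20 and 0.13 for the tested members.

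Genes that act with group II factors are VQ protein genes and genes of a MAP kinase cascade. Of 10 tested genes for VQ proteins, which bind WRKY proteins, 2 fell in OE under drought, IKU1 (-0.41 ± 0.12, adjusted p = 0.0324) and CAMBP25 (-0.73 ± 0.20, adjusted p = 0.0256). In WT 1 fell, SIB1 (-0.80 ± 0.135, adjusted p = 0.00128). The medians were 0.03 in OE and -0.33 in WT. Of 11 genes of the flagellin receptor and MAP kinase cascade, 1 rose in OE, MPK4 (0.45 ± 0.13, adjusted p = 0.0295). In WT 1 rose, again MPK4 (0.57 ± 0.13, adjusted p = 0.00949), and 4 fell, among them MPK11 (-1.65 ± 0.29, adjusted p = 0.003) and MPK3 (-0.47 ± 0.12, adjusted p = 0.0186). The medians of these 11 genes were -0.01 in OE and -0.14 in WT. Over all genes 6.77% were called up and 9.92% down in OE, and 5.63% and 7.37% in WT. None of these 21 genes was called between OE and WT by edgeR over all 8 libraries. Without the first droughted OE library IKU1 (adjusted p = 0.0748) and MPK4 (0.149) were not called in OE, and MPK11 was called higher in droughted OE than in droughted WT (1.79, adjusted p = 0.0239).

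Of 15 genes reported elsewhere as targets of group II factors, 11 were tested. RD29A, an abscisic acid and dehydration responsive gene, had 217 and 234 CPM in droughted OE, 197 and 172 CPM in droughted WT, 269 and 241 CPM in watered OE and 127 and 108 CPM in watered WT libraries. It was higher in OE with normal watering by 1.12 ± 0.13 (adjusted p = 0.00101) and rose with drought in WT by 0.65 ± 0.13 (adjusted p = 0.00351). ABI5, an abscisic acid responsive transcription factor whose promoter WRKY40 is known to bind, rose with drought by 1.17 ± 0.27 in OE and 1.14 ± 0.25 in WT (adjusted p = 0.00726 and 0.00666). The flowering gene FUL rose in OE by 1.09 ± 0.17 (adjusted p = 0.000585) and the catalase gene CAT2 fell in OE by 0.72 ± 0.21 (adjusted p = 0.0492). In OE, leaving out the first droughted library ended the calls of ABI5 (adjusted p = 0.0776) and CAT2 (0.135). The remaining tested targets, among them PHO1, ICS1, NCED3 and HY5, were not called in any comparison. The medians with drought were 0.26 in OE and 0.18 in WT.

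Reads that fit more than 1 member could be split between them in counting. Among the 630 pairs of members, the longest run of identical bases between coding sequences was 36, between WRKY11 and WRKY17, and the median over pairs was 11.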

How the data were processed

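For every library the authors deposited a table that gives each listed gene an expected count, not normalized, and an FPKM value, per the file headers. Of the listed counts, 88.06% to 88.81% are whole numbers within 0.005. The submitters' processing notes name, without role or order, edgeR, featureCounts, HISAT2 2.0.5 and STAR, with TAIR10 as the build, and strand use in counting is not given in the sources used here. Tables leave out genes at 0, so a missing gene was given 0. All table columns used were assigned, with 0 left over. The deposited tables hold no coordinates; those given here, and the promoters, come from the RefSeq annotation of TAIR10.1, matched by locus name.

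Expected counts, rounded to whole numbers, were the input of edgeR 4.0.16 under R 4.3.3 (filterByExpr with a minimum count of 10, TMM, robust quasi-likelihood fit, 1 mean per group, 4 residual degrees of freedom, biological coefficient of variation 10.2%). The SE was derived from the log2 fold change and its F statistic. Alternatives were DESeq2 1.42.0, its size factors in edgeR, no filter, limma 3.58.1 on log2 of the deposited FPKM plus 0.5 (which understates changes of low genes), only the libraries compared, the replicate number as a block, and each library left out in turn. The scripts were tested on simulated data.

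Given library by library are the members called in any comparison, subgroup IIa and the 3 members with the highest mean FPKM. From each gene list up to 3 called genes per comparison are named, most of them with the log2 fold change only. Values of WRKY6, WRKY28, WRKY35, WRKY48, WRKY57 and WRKY75 are given as well and were chosen after they were seen. The members and lists were chosen with earlier results of these data known. The replicate numbers did not pair the libraries: differences between replicate 1 and 2 correlated between groups at -0.069 to 0.067. Intervals and floors cover counting error only.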

Additional observations from a re-analysis of the deposited data

Results flagged for a closer look

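WRKY53, a group III gene outside the set, had a larger drought response in OE than in WT by edgeR. It had 78.7 and 75.3 CPM in droughted OE, 46.8 and 53.6 CPM in droughted WT, 36.2 and 38.2 CPM in watered OE and 47.9 and 42 CPM in watered WT libraries, and the difference of the log2 responses, OE minus WT, was 0.888 ± 0.16 (edgeR quasi-likelihood test, adjusted p = 0.0447). Under drought it was higher in OE by 0.616 ± 0.11 on the log2 scale (adjusted p = 0.0312). Without the first droughted OE library, whose genotype label names VaWRKY15, the difference was 0.87 (adjusted p = 0.0945) and the value under drought 0.592 (adjusted p = 0.18), neither called. The difference was also not called by limma on the FPKM scale (0.987, adjusted p = 0.0547), nor without the second droughted OE (adjusted p = 0.105), the first watered OE (0.142), the first watered WT (0.083) or the first or second droughted WT library (0.0884 and 0.0783). DESeq2 called it (0.891, adjusted p = 0.0122). The value under drought was not called by limma on the FPKM scale (0.078), nor without the second droughted OE (0.152) or the first or second droughted WT library (0.163 and 0.11).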

How the results depend on the processing

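The number of genes called depended on the processing. For OE against WT with normal watering, 75 genes became 166 without a filter, 171 with DESeq2, 36 with limma on FPKM and 21 with only the libraries compared. Under drought, 57 became 108, 91, 36 and 233 under the same settings. For the difference of responses, 31 became 202 without a filter and 146 with DESeq2. For drought against normal watering, limma on FPKM called 7584 genes in OE and 4547 in WT, over 1.5 times as many as the fit reported.

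The number of group II members called for OE against WT under drought was 0, and became 1 without a filter, 1 on FPKM and 3 with only the libraries compared. For the difference of responses it became 1 without a filter and 1 on FPKM, and with normal watering 1 with DESeq2. For drought in OE, 3 became 12 on FPKM and 5 with only the libraries compared. For drought in WT, 6 became 11 on FPKM, 2 with DESeq2 and 3 with only the libraries compared. The members' median became 0.029 for OE against WT under drought without a filter, and 0.484 in OE and 0.314 in WT for drought on FPKM. The cause was not tested, apart from the shift of all genes on FPKM given above.

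Leaving out 1 library at a time gave 16 to 438 genes for OE against WT with normal watering, 10 to 130 under drought, 1456 to 3562 for drought in OE, 1118 to 2578 in WT and 2 to 326 for the difference. The members called were then 0 to 3, 0 to 1, 1 to 5, 1 to 6 and 0 to 2, and their medians -0.123 to 0.037, -0.003 to 0.135, 0.161 to 0.335, 0.092 to 0.181 and -0.12 to 0.119.

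The signs given here as turned belong to values that were not called in the fit reported. Among the 12 members given library by library, on FPKM WRKY60 (-0.173) and WRKY15 (-0.081) turned for OE against WT with normal watering, WRKY18 (0.069) for drought in WT, and WRKY40 (0.228), WRKY45 (0.22), WRKY11 (0.199) and WRKY15 (0.164) for drought in OE. Among the other members WRKY6 turned for drought in WT (0.04), WRKY7 (0.225) and WRKY65 (0.109) for drought in OE, and WRKY47 and WRKY17 (0.004 each) for the difference, and WRKY7 was at 0 with normal watering. With DESeq2 size factors no member turned. WRKY60 with normal watering was at -0.003 both with only the libraries compared and with the replicate block. With single libraries left out, signs turned within these ranges. With normal watering they were -0.259 to 0.726 for WRKY18, -0.805 to 0.03 for WRKY40, -0.32 to 0.266 for WRKY60, -0.05 to 0.441 for WRKY42, -0.156 to 0.164 for WRKY15 and -0.35 to 0.036 for WRKY69. For OE against WT under drought they were -0.326 to 0.063 for WRKY22 and -0.107 to 0.026 for WRKY39. For drought in OE they were -0.365 to 0.621 for WRKY18, -0.525 to 0.31 for WRKY40, -0.152 to 0.339 for WRKY42, -0.309 to 0.065 for WRKY45 and 0 to 0.386 for WRKY69. For the difference they were -0.168 to 0.817 for WRKY18 and -0.123 to 0.463 for WRKY60. Of 824 values of named members under an alternative, 729 kept direction and side of the threshold, 38 lost and 29 gained a call, and 28 turned.

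The replicate block kept the counts of members called at 6 in WT and put 2 in place of 3 in OE. With it WRKY39 in OE had an adjusted p of 0.0552, WRKY45 in WT had 0.0635, the difference of WRKY53 had 0.0514 and WRKY15 in WT was called (0.0415). With 2 libraries a group, a leave-one-out fit assumes that the lone library varies like the other groups. WRKY31, WRKY43, WRKY71 and WRKY72 were too low to test at this depth.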
